A study of Mus musculus with 2 samples.

Results

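The interferon-inducible genes are described here in the developing incisor of newborn wild-type and *Sox21* KO mice. Members were chosen by name alone, as every gene whose name on the array starts with Isg or Oasl, starts with Ifi, Ifit, Ifitm, Oas or Gbp and a number, or is *Mx1*, *Mx2* or a Stat or Irf gene of the interferon pathway. This rule found 57 of the 21256 genes on the array, through 74 probes. It used no measured value. The question behind it is whether *Ifi202b*, a gene of this family that the study had listed among those raised in *Sox21* KO teeth, stood alone or moved together with its relatives. Because that list was drawn from these same arrays, the value of *Ifi202b* is a description and not independent evidence of its direction.

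Total RNA from incisor tissue was hybridised to Agilent one-colour arrays, with 1 array for the wild-type and 1 for the *Sox21* KO, both labelled P0 (day 0 after birth). *Sox21* is a transcription factor of the dental epithelium and hair follicle. The study's methods name C57BL/6J as its wild-type strain. The strain background of the *Sox21* KO animals, which carry a constitutive knockout, and the number of animals behind each array are not given in the sources used here, and the methods place the dissection at P1, unlike the labels. With 1 array per genotype no difference between genotypes has a replicate check, and no p-value is given. In whole tissue, fewer cells of a type and less RNA per cell cannot be told apart.

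Interferons are secreted proteins released when a cell senses foreign or misplaced nucleic acid. They bind receptors coupled to the kinases *Jak1*, *Jak2* and *Tyk2*, which phosphorylate Stat proteins. Complexes that contain *Stat2* and *Irf9* bind a promoter element called ISRE, and pairs of Stat proteins bind an element called GAS. The genes behind these elements encode antiviral effectors, sensors of nucleic acid, antigen-presenting proteins and further transcription factors, and many are also transcribed at a low level without infection. Some genes carry a family name without being induced by interferon.

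The array recognises *Ifi202b* by 60-base probes at 2 places, and both are shown because the finding rests on them. Positions are on mm9 as the files give them, on the minus strand of chromosome 1. The brighter probe lies at chr1:175892789-175892848, and its first 30 bases are given. The dimmer probe, given whole, is spread over chr1:175892953-175893982, a span longer than the probe, so it bridges a gap in the genome as a probe across an intron does. The exon and UTR placement of either probe was not analysed here.
*Ifi202b* brighter probe: ctgctcaaatataatacatacaacatccag
*Ifi202b* dimmer probe: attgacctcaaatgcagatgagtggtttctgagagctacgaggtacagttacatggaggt
The longest stretch shared with a probe of any other gene was 13 bases for the brighter probe and 14 bases for the dimmer.

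*Ifi202b* encodes a HIN-200 protein, one of a family of nuclear and cytosolic DNA-binding proteins, and is known to hold back the DNA sensor *Aim2*. Its processed signal, the intensity after the scanner software's own corrections, background among them, came to 91.6 ± 10.67 for wild-type and 201 ± 20.7 for *Sox21* KO. The errors are those of the scanner's own model for a spot, and do not cover the spread between animals. Each signal was divided by the 75th percentile of its array, which was 268 for wild-type and 276 for *Sox21* KO. On this normalized scale *Ifi202b* stood at 0.342 in wild-type and 0.729 in *Sox21* KO, a log2 ratio (*Sox21* KO minus wild-type, as for every ratio given here) of 1.09 ± 0.22.

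The dimmer *Ifi202b* probe gave 55.3 ± 7.39 in wild-type and 140 ± 14.7 in *Sox21* KO, a log2 ratio of 1.305. By normalized processed signal, both probes of the gene were therefore more than 2-fold brighter on the *Sox21* KO array. Before any background was removed, the brighter probe read 125 over a local level of 26 around the spot in wild-type, and 218.5 over 25 in *Sox21* KO. The processed signals of 91.6 and 201 are not these readings less the local level, so the 2-fold call rests on the scanner's own correction. A ratio after plain subtraction of the local level was not calculated. Both spots are dim, and the size of the ratio depended on how background was treated. With a normexp correction and an offset of 50 in place of the scanner's correction, the log2 ratio of *Ifi202b* was 0.66, below 2-fold.

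The transcript level of *Ifi202b* is known to differ widely between inbred strains of mice. Since the strain background of the *Sox21* KO animals is not given, strain and genotype cannot be told apart for this gene. *Nnt*, which is partly deleted in C57BL/6J, gave a log2 ratio of -0.01, and it was not analysed here whether its probe lies in the deleted exons. For *H2-Ea*, which mice of the C57BL/6J haplotype do not transcribe, neither array gave a signal well above background. This cannot tell C57BL/6J from any other strain that lacks the transcript.

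*Sox21* was read first as the check of the genotype. Its brighter probe read 1362 in wild-type and 659 in *Sox21* KO, a log2 ratio of -1.09, and the other 286 and 103, a log2 ratio of -1.51. Both were lower on the array labelled *Sox21* KO, although neither signal was lost. Spots well above background were 49.7% of the wild-type and 50.4% of the *Sox21* KO array, and 0 spots were saturated. Only genes well above background on both arrays, 13794 of 21256, are called measured below.

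Of the 57 members, 39 were measured. A further 4 were well above background on the *Sox21* KO array only, 2 on the wild-type array only and 12 on neither. Among the 39 measured members, 16 had a higher and 23 a lower signal in *Sox21* KO. The 16 make up 41% of the measured members, whereas 52.4% of all measured genes had a log2 ratio above 0. Their median log2 ratio was -0.07, beside 0.01 for all measured genes. When arrays were instead aligned on their medians, the median of all genes moved to 0.11 and that of the members to 0.028, and 61.5% of the members were higher, beside 69.3% of all measured genes. The split between higher and lower members thus turned on the scaling. The members' median minus that of all genes was -0.08 in the first scaling, a gap that a shift of a whole array cannot change, and -0.05 with the normexp correction described above.

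*Ifi202b* was the only measured member at least 2-fold higher in *Sox21* KO, and 0 members were at least 2-fold lower. Over all measured genes, 102 (0.739%) were at least 2-fold higher and 92 (0.667%) at least 2-fold lower. Dim genes scatter more, and among the 3295 measured genes whose mean signal lay within 2-fold of that of *Ifi202b*, 41 (1.24%) were at least 2-fold higher. Ranked by log2 ratio from the top, *Ifi202b* was number 86 of 13794. At 1.5-fold, *Ifi202b* and *Ifitm5* were higher and *Mx2* was lower, against 441 genes (3.2%) higher and 412 (2.99%) lower in the whole array. At 1.5-fold the members' shares, 2 and 1 of 39, were near these background shares, and at 2-fold their share rested on a single gene.

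**Figure D1:**
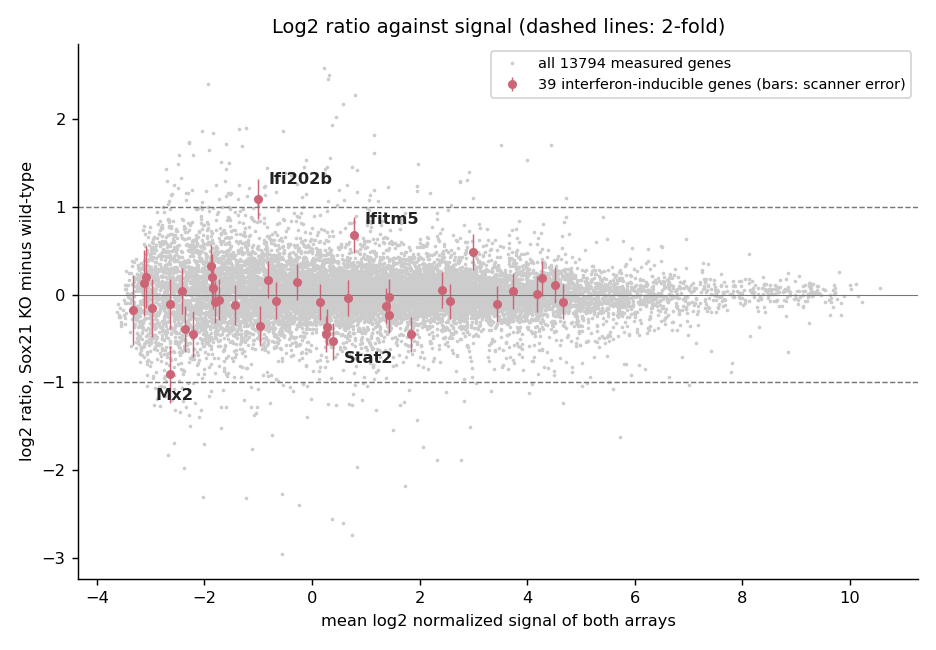
Log2 ratio (*Sox21* KO minus wild-type) against the mean log2 normalized signal of both arrays, for all 13794 measured genes (grey) and the 39 measured interferon-inducible genes (red, bars: scanner error of 1 spot pair), with dashed lines at 2-fold. *Ifi202b* at 1.09 is the only member above the upper line, and *Mx2* at -0.91 lies closest to the lower line.

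Leaving *Ifi202b* out changed the members' spread more than their centre. The standard deviation of their log2 ratios was 0.34 with it and 0.29 without it, and was 0.32 over all measured genes. The median was -0.07 in both cases. The next highest member, *Ifitm5*, stood 0.41 below *Ifi202b* on the log2 scale.

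Spots printed more than once on an array give a measure of technical scatter. Over 268 probes with repeated spots, the median standard deviation of the log2 ratio was 0.09. It was 0.15 over the 63 such probes with a signal within 2-fold of *Ifi202b*, with a maximum of 0.30. By the scanner's error model, 7 of the 39 members lay more than 2 errors from 0, and 26 lay within 1 error of it. Of all measured genes, 5.55% lay more than 2 errors from 0 on the higher side and 5.29% on the lower side, and 66% lay within 1 error. The 7 were *Ifi202b*, *Ifitm5* and *Ifitm1*, which were higher, and *Mx2*, *Stat2*, *Isg15* and *Oasl2*, which were lower, so 3 and 4 of 39 stand beside those shares. None of these measures covers differences between animals.

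**Figure D2:**
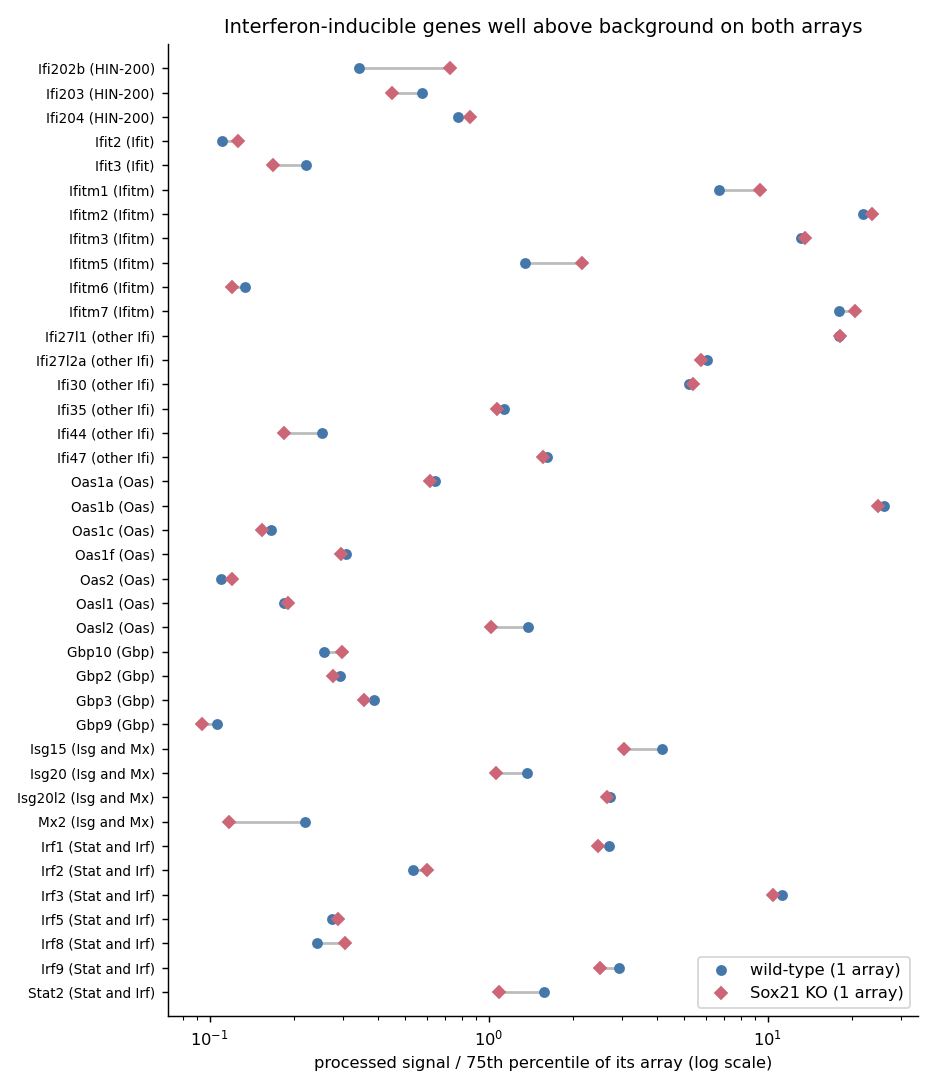
Normalized signal (log axis) of each of the 39 measured members for wild-type (blue circles) and *Sox21* KO (red diamonds), 1 array each, ordered by family. Most pairs nearly coincide, and the widest gaps are those of *Ifi202b*, where *Sox21* KO is higher, and *Mx2*, where wild-type is higher; signals of different probes do not rank the genes.

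The HIN-200 genes other than *Ifi202b* did not share its ratio. *Ifi203* gave 154.6 in wild-type and 124.6 in *Sox21* KO, a log2 ratio of -0.35 ± 0.22, and its other measured probe gave -0.20. *Ifi204*, the mouse gene for the DNA sensor p204, gave 209 and 237, a log2 ratio of 0.14 ± 0.21. The dimmer probe of *Ifi204* read 55.8 and 36.3, a log2 ratio of -0.66, so the direction of this gene depended on the probe. Both *Ifi203* ratios lay within 2 scanner errors of 0.

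HIN-200 genes lie in a cluster around *Ifi202b*, and some have older names on the array that the name rule passes over. Together with those found through RefSeq, and with *Mndal* and *Aim2* from a list of the family, 10 HIN-200 genes beside *Ifi202b* had a probe, of which 6 were measured, 3 higher and 3 lower, with log2 ratios from -0.35 to 0.33 and a median of 0.04. The even split turned on the scaling. Of the 4 measured genes outside the name rule, 2 were higher here and all 4 under another scaling. Going outward from *Ifi202b* on the side where its family lies, *Ifi203* was 42.3 kb away, *Ifi211* (*Mnda* on the array) 66.2 kb away with a log2 ratio of 0.33, and *Mndal* 105 kb away with -0.07. Beyond them came *Ifi204* at 215 kb and *Ifi207* (*AI607873* on the array) at 239 kb with 0.25. *Ifi208* (*Pydc3* on the array), farther out, gave 748 and 740, a log2 ratio of -0.06. On the other side, the 5 nearest genes were the olfactory receptors *Olfr433*, *Olfr432*, *Olfr430*, *Olfr429* and *Olfr427*, none of them measured on either array.

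Within 1000 kb of *Ifi202b* on either side, 36 other genes had a probe and 12 were measured. Of these, 7 were higher and 5 lower, with a median log2 ratio of 0.07, and 0 were past 2-fold. Among the 5, *Mndal* and *Ifi208* were higher under another scaling, so the split and the median depend on it. The extremes of the 12 were the chemokine receptor gene *Ackr1* (*Darc* on the array) at 0.36 and the actin-nucleator gene *Fmn2* at -0.48. The ratio of *Ifi202b* lay above that of every measured neighbour in this window.

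**Figure D3:**
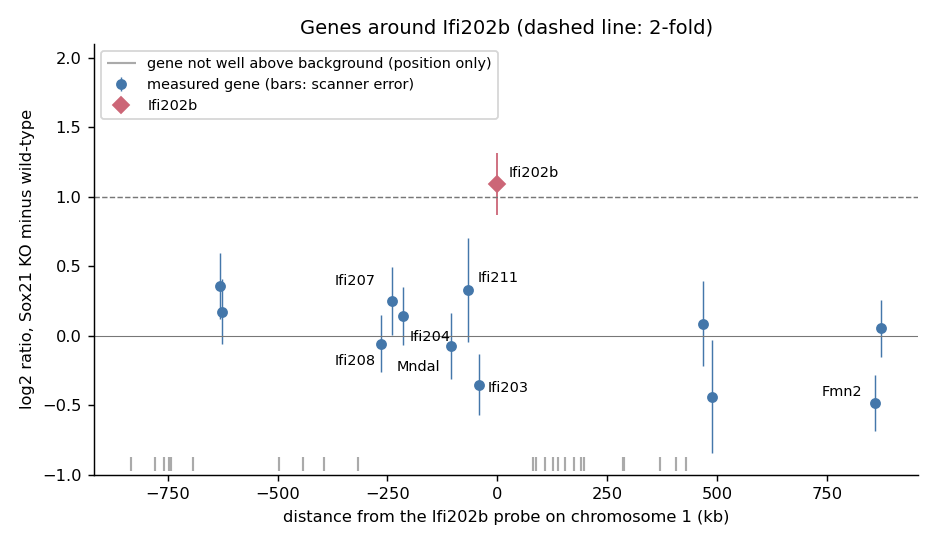
Log2 ratio (*Sox21* KO minus wild-type) of measured genes against the distance of their probe from that of *Ifi202b* on chromosome 1, in kb, with scanner errors as bars; grey ticks mark genes not well above background on both arrays, by position only. The 12 measured neighbours lie between -0.48 and 0.36, below the dashed 2-fold line and below *Ifi202b*.

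Among the Isg and Mx genes, *Isg15*, *Isg20* and *Mx2* had lower signals in *Sox21* KO at every measured probe. *Isg15*, a ubiquitin-like protein that is attached to other proteins, gave 1121 in wild-type and 842 in *Sox21* KO, a log2 ratio of -0.45 ± 0.20, and -0.48 at its other probe. *Isg20*, an exonuclease that degrades RNA, gave 369 and 293, a log2 ratio of -0.37, and -0.40 at its other probe. *Mx2*, a dynamin-like GTPase, gave 58.7 and 32.2, a log2 ratio of -0.91 ± 0.33. It was the lowest of the measured members. With the normexp correction its log2 ratio was -0.46, and *Stat2* at -0.49 was lowest.

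*Isg20l2*, an exonuclease of ribosome production that shares only the name, gave 727 and 735, a log2 ratio of -0.03. The 4 measured genes of the group were all lower, with a median of -0.41, but the sign of *Isg20l2* turned under another scaling. *Mx1*, which is disrupted in most inbred strains, was measured on neither array.

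Ifit proteins bind foreign RNA and block its translation. *Ifit2* read 29.5 in wild-type and 34.9 in *Sox21* KO, a log2 ratio of 0.20 ± 0.35. *Ifit3* read 59.3 and 46.5, a log2 ratio of -0.39 ± 0.26. *Ifit1* was well above background in *Sox21* KO only, at 22.1 against 7.25, which bounds it at least 1.01-fold higher there. The family showed no shared direction.

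The Oas genes encode enzymes that make an RNA-degradation signal when they meet RNA duplexes. Of 12, 7 were measured, 2 higher and 5 lower, with a median log2 ratio of -0.07, although 5 were higher and the median 0.028 with the median shift. *Oasl2*, a relative of these enzymes with ubiquitin-like domains, was lowest, with 372 in wild-type and 281 in *Sox21* KO and a log2 ratio of -0.44 ± 0.21. *Oas2* was highest at 0.13 ± 0.37, with 29.4 and 33.2. *Oas1b*, known for resistance to flaviviruses, read 7020 and 6839, a log2 ratio of -0.08. Its other probe was far dimmer, at 126.8 and 111.5, with a log2 ratio of -0.227 ± 0.216. *Oas1d* was well above background in *Sox21* KO only (23.1 and 30.7, at least 1.29-fold higher) and *Oas1g* in wild-type only (24.9 and 3.93, at least 1.32-fold higher in wild-type). At their brighter probes, all measured Oas genes but *Oasl2* lay within 1 scanner error of 0.

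Gbp genes encode large GTPases that attack the membranes around intracellular microbes. Of 11, 4 were measured, and their log2 ratios were 0.21 for *Gbp10* (69.0 and 81.9), -0.09 for *Gbp2*, -0.12 for *Gbp3* (103.8 and 98.2) and -0.18 for *Gbp9* (28.4 and 25.8). All 4 lay within 1 scanner error of 0. *Gbp5* read 23.6 and 30.3 and *Gbp7* 26.1 and 33.4, both well above background in *Sox21* KO only and at least 1.25-fold and 1.24-fold higher there. The probe named *Gbp6* on the array lies on chromosome 3, whereas the gene that RefSeq calls *Gbp6* is *Mpa2l* on the array, with 54.9 in wild-type, 34.3 in *Sox21* KO and a log2 ratio of -0.72.

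Most Ifitm genes encode small membrane proteins that keep viruses from fusing. All 6 were measured, 5 higher and 1 lower, with a median log2 ratio of 0.15, but only *Ifitm5* and *Ifitm1* lay more than 1 scanner error from 0. *Ifitm5* gave 361 in wild-type and 597 in *Sox21* KO, a log2 ratio of 0.68 ± 0.21. *Ifitm1* gave 1799 and 2590, a log2 ratio of 0.48 ± 0.20. Both kept their direction under every scaling and background correction tried.

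*Ifitm5* is a protein of mineralising bone cells and is not known as an interferon target. Of the 6 odontoblast and dental mesenchyme markers, 5 were higher, beside 52.4% of all measured genes. Only *Dmp1* at a log2 ratio of 0.93 and *Phex* at 0.79, genes of mineralising matrix, lay more than 1 scanner error from 0. *Dspp*, the defining dentin gene, gave -0.01. The part of such cells in the *Ifitm5* ratio was not tested.

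*Ifitm3* was printed in 10 spots, which averaged 3530 ± 128 (SD over spots) in wild-type and 3745 ± 125 in *Sox21* KO, a log2 ratio of 0.04. *Ifitm2* gave 5873 and 6515, a log2 ratio of 0.11. *Ifitm6* was the only lower one, at 35.9 and 33.2 with a log2 ratio of -0.15 ± 0.33. The probes of *Ifitm7* fell on either side of 0, at 0.18 and -0.20. At their brighter probes, all 4 of these genes lay within 1 scanner error of 0.

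Of the remaining Ifi genes, 6 of 7 were measured, 2 higher and 4 lower, with 5 higher under the median shift. *Ifi44*, an antiviral protein of the cytoplasm, was lowest at 67.4 in wild-type and 51.0 in *Sox21* KO, a log2 ratio of -0.44 ± 0.26. *Ifi30*, a lysosomal thiol reductase used in antigen processing, was highest at 1395 and 1489, a log2 ratio of 0.05. *Ifi27l1* (*Ifi27* in RefSeq) gave 4844 and 5021, a log2 ratio of 0.01. *Ifi27l2a*, *Ifi35* and *Ifi47* lay between -0.08 and -0.04, and these signs, like that of *Ifi27l1*, turned under another scaling.

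The transcription factors of the pathway were led by *Stat2*, which gave 423 in wild-type and 301 in *Sox21* KO, a log2 ratio of -0.53 ± 0.21. *Irf9*, its partner, gave a log2 ratio of -0.23. *Irf8*, a factor of myeloid cells, was highest at 65.0 and 84.0, a log2 ratio of 0.33 ± 0.24. *Irf3*, which is activated by the sensors without new synthesis, read 3004 and 2873, a log2 ratio of -0.11. *Irf7*, the main amplifier of interferon production, was well above background in wild-type only, at 28.4 against 14.0 in *Sox21* KO, at least 1.501-fold higher in wild-type. Of 10 factors, 7 were measured, 3 higher and 4 lower.

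**Figure D4:**
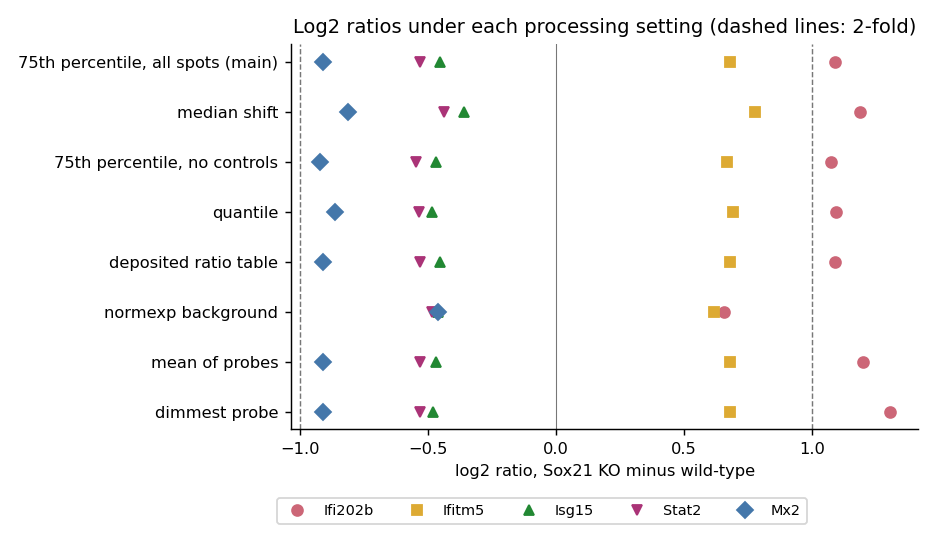
Log2 ratios (*Sox21* KO minus wild-type) of *Ifi202b*, *Ifitm5*, *Isg15*, *Stat2* and *Mx2* under 8 ways of scaling, background correction or probe choice, with dashed lines at 2-fold. All 5 genes keep their direction throughout, while *Ifi202b* falls below 2-fold only with normexp, where it meets *Ifitm5*, and *Mx2* moves from -0.91 to -0.46.

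The promoters were compared for the elements through which interferon acts. Windows from 250 bases before to 50 after the gene start, from RefSeq on GRCm38.p6, were at hand for 40 of the 57 members. The ISRE letters GAAANNGAAA, on either strand, stood in 17 of the 40 (42.5%) and in 1079 of 27025 genes (3.99%). The GAS letters TTCNNNGAA, on either strand (they overlap in part with ISRE runs), stood in 12 members (30%) and in 2582 genes (9.55%). The sequence before the start of *Ifi202b* and shorter stretches of 4 relatives are shown, to set *Ifi202b*, one of the 23 members without ISRE letters in this window, beside members chosen because they carry them. Capitals mark a match to either motif, and sequences on the minus strand are written 5′ to 3′ along the gene.
*Ifi202b*, chr1:173982845-173983094, minus strand: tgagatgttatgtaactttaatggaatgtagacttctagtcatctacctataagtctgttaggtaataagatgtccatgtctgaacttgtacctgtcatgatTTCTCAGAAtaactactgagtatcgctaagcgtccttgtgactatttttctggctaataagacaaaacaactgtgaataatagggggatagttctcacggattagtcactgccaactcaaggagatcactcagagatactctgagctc
*Isg15*, chr4:156200857-156200916, minus strand: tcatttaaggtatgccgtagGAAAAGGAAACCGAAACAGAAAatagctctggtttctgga
*Ifit1*, chr19:34640765-34640824, plus strand: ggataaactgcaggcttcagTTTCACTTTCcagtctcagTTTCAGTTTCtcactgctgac
*Stat2*, chr10:128270256-128270315, plus strand: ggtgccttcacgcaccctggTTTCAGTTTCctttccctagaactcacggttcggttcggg
*Gbp2*, chr3:142620584-142620643, plus strand: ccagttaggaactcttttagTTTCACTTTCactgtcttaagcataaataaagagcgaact

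In the *Ifi202b* window the only match was to the GAS letters, starting 148 bases before the gene start. In *Isg15* the run of overlapping ISRE letters started 78 bases before the start, in *Gbp2* the match started 59 bases before it, and in *Stat2* 222 bases before it. A match of letters is not a binding site, and the absence of one concerns this window only. Of the 11 measured members with ISRE letters, 3 were higher and 8 lower, with a median log2 ratio of -0.11 and 0 past 2-fold (5 higher, 6 lower and a median of -0.01 with the median shift). Of the 20 measured members whose window had none, 9 were higher and 11 lower, with a median of -0.03, or -0.04 without *Ifi202b* (13 higher, 7 lower and a median of 0.06 with the median shift).

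Upstream of these genes, most interferon genes gave signals near the floor of the array, with *Il28b* (93.0 in wild-type and 74.2 in *Sox21* KO) an exception. Of 16 ligand genes with a probe, 4 were measured, 3 higher and 1 lower with a median log2 ratio of 0.30 that was 0.04 with normexp, and *Ifnb1* and *Ifng* were well above background on neither array. Among the measured ligands the highest ratio was 0.34 for *Ifna14* (36.2 in wild-type and 47.1 in *Sox21* KO), and the lowest -0.37 for *Il28b* (*Ifnl3* in RefSeq). *Ifna5* was well above background in *Sox21* KO only, at 13.2 in wild-type and 40.5 in *Sox21* KO, which bounds it at least 1.85-fold higher there. *Ifna12* (27.3 and 13.8) and *Ifnk* (28.7 and 21.6) were well above background in wild-type only, at least 1.44-fold and 1.37-fold higher there. The *Ifna* genes are near-identical copies whose probes may share signal. Their receptors and kinases were all measured, 9 of 9, with 6 higher, 3 lower and a median of 0.15, which was 0.07 with the mean of probes or the dimmest probe and 0.25 with the median shift. *Il28ra* (*Ifnlr1*), the receptor of the epithelial interferons of type III, was highest with 108 and 196, a log2 ratio of 0.82, and *Jak1* lowest at -0.26. Among the measured genes of both lists, 0 were past 2-fold.

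Of 13 sensors and adaptors, 11 were measured, 7 higher and 4 lower, with a median log2 ratio of 0.04 that was 0.13 with the median shift and 0.14 with a signal of at least 100 required. The endosomal RNA sensor *Tlr7* was highest, at 361 in wild-type and 606 in *Sox21* KO, a log2 ratio of 0.71, and the nucleic acid sensor *Zbp1* was lowest at -0.35. All 7 measured negative regulators were higher under every scaling and background correction tried, beside 52.4% of all measured genes in the first scaling and 69.3% with the median shift, but *Socs1*, *Pias1*, *Trex1* and *Adar* lay within 1 scanner error of 0. Their median was 0.20, but 0.11 with normexp and 0.08 with the mean of probes, and they ranged from 0.02 for the DNA exonuclease *Trex1* to 0.43 for *Socs3*, an inhibitor of Jak kinases. Other interferon-induced effectors outside the name rule split evenly, with 14 of 27 higher and 13 lower, but up to 22 were higher under another scaling. Their median was 0.04, but 0.13 with the median shift and 0.004 with normexp. They ranged from -0.45 for the apoptosis gene *Xaf1* to 0.73 for *Rsad2*, an antiviral enzyme, which gave 48.3 and 82.3. Of the genes of class I antigen presentation, 5 of 11 were higher and 6 lower with a median of -0.03 that turned to 0.06 under the median shift, from -0.31 for the immunoproteasome subunit *Psmb9* to 0.44 for the peptide transporter *Tap2*. In all these lists 0 measured genes were past 2-fold in either direction.

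**Figure D5:**
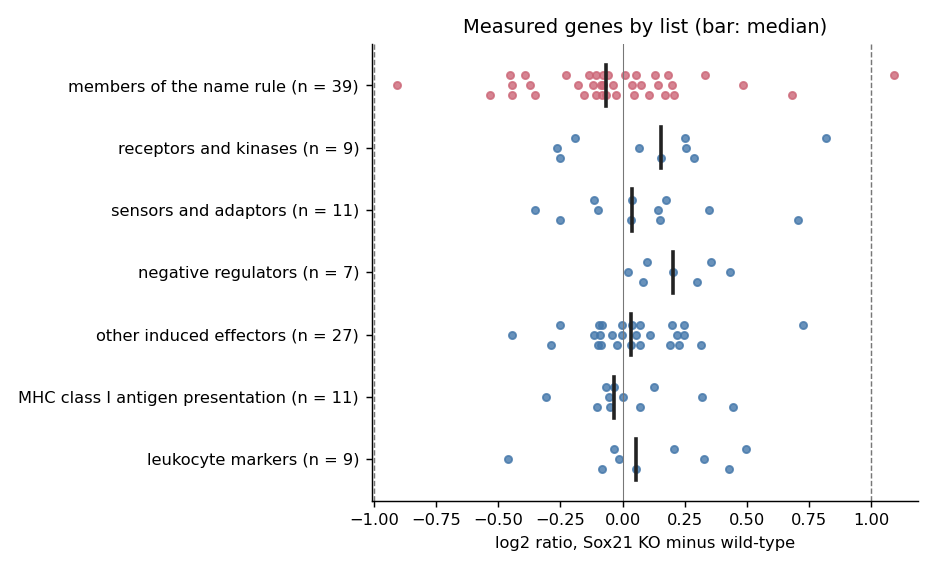
Log2 ratio (*Sox21* KO minus wild-type) of each measured gene, 1 point per gene, for the members of the name rule (red) and for lists of the surrounding pathway and of leukocytes (blue), with black bars at the medians and dashed lines at 2-fold. *Ifi202b* at 1.09 is the only point past 2-fold, and the medians of the plotted lists lie between -0.07 and 0.20; the ligands and dendritic markers, with 4 measured genes each, are not plotted.

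Interferon-inducible genes are transcribed strongly in leukocytes, so their markers were read beside the members. Of 14 leukocyte markers with a probe, 9 were measured, 5 higher and 4 lower (8 higher under another scaling). Their median log2 ratio was 0.05 (0.03 with normexp and 0.15 with the median shift), and they ranged from -0.46 for *Itgam* to 0.50 for *Cd68*. The normalized signals of all 14 summed to 110.6 in wild-type and 106.2 in *Sox21* KO, a sum set by the brightest probes and no measure of cell number, with most of it from the probes of *Itgam* (53.6 and 38.9) and *Csf1r* (32.9 and 41.3), which went opposite ways. By processed signal, *Ptprc*, the defining pan-leukocyte gene (19.2 in wild-type and 23.9 in *Sox21* KO), *Lyz2* (21.1 and 24.5) and *Fcgr3* (28.16 and 28.17) passed the background call in *Sox21* KO only, with signals near that limit on both arrays, and the B cell marker *Ms4a1* on neither array. On the same scale in wild-type, the *Itgam* probe read 14364 and the *Cd3e* probe 1931, far above *Ptprc*. What these bright probes detect was not analysed here, so the count and median need not describe leukocytes. Of 6 markers of plasmacytoid and other dendritic cells, 4 were measured, 1 higher and 3 lower (0 to 2 higher over the scalings), from -0.29 for *Bst2* to 0.14 for *Itgax*. The normalized signals of all 6 summed to 228 in wild-type and 217 in *Sox21* KO, a sum that stands for little but the *Siglech* probe (208.5 and 200.1). What that probe detects was not analysed either. The part of leukocytes in the ratios of the members was not tested.

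Markers of the labelled tissue were read as well. All 10 ameloblast and all 6 odontoblast and dental mesenchyme markers were measured, beside 13794 of all 21256 genes. The enamel gene *Amelx* read 394211 in wild-type and 428250 in *Sox21* KO. The ameloblast markers were lower in 7 of 10, with a median log2 ratio of -0.29 that was -0.19 with the median shift. They included the enamel genes *Amtn* at -1.89 and *Klk4* at -1.05, while *Odam*, a protein of maturing enamel epithelium, was highest at 0.63. *Amtn* and *Klk4* were the only measured genes of any list past 2-fold. The part of a changed share of ameloblasts in the ratios of the interferon-inducible genes was not tested.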

How the data were processed

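RNA from incisors was labelled with Cy3 and hybridised to 2 Agilent one-colour mouse arrays of 62976 spots. The authors deposited, per the file headers, spot intensity values processed by Feature Extraction 10.7.3.1, and a table of ratio values, which are these signals over 1 divisor per array (267.771 and 275.586). Control spots and 267 outlier spots were left out, giving 55679 probes. Of these, 28718 took a RefSeq symbol (GRCm38.p6) and the others kept the file's name. Probe positions are those of mm9 in the files. The log2 of each signal over the 75th percentile of all spots was averaged over spots. Each gene took its brightest probe well above background on both arrays.

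A gene well above background on 1 array was bounded as the brighter normalized signal over the higher of the dimmer one and the lowest signal well above background there (21.3 in wild-type, 19.5 in *Sox21* KO). In each family the text names the brightest, highest and lowest measured member, members past 1.5-fold and those on 1 array only, all HIN-200 genes, and the extremes of each list. Other genes were named after their values were seen, and a few items are not reported here. Members and lists were chosen with earlier results of these data known. Alternatives were median shift, a percentile without controls, quantile scaling, normexp, the deposited ratios, other probe choices and filters. The array number, 1 per genotype, limits the precision. Python 3.11.15, pandas 2.3.3, matplotlib 3.10.9, R 4.3.3 and limma 3.58.1 were used, and the calculation was tested on simulated data.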

Additional observations from a re-analysis of the deposited data

How the results depend on the processing

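With 1 array per genotype every value is a difference between 2 arrays, and dim probes carry the most error. The log2 ratio of *Ifi202b* was 0.66 with the normexp correction and 1.08 to 1.305 under the other alternatives that gave a value. It had none with a processed signal of at least 100 required on both arrays, which its wild-type signal missed. Members at least 2-fold apart numbered 1, against 0 with normexp, 0 with that signal minimum, 3 at 1.5-fold (2 higher and 1 lower) and 7 (3 higher and 4 lower) without a requirement on background. The members' median moved from -0.07 to 0.028 with median shift, and with the signal minimum 9 of 23 members were higher, against 16 of 39. With median shift 24 of 39 were higher (61.5%, beside 69.3% of all genes). Of the other recalculations of these 4 values, none moved a count by over 1.5 times or a ratio by more than its technical error. Over all genes, 102 were 2-fold higher and 92 lower, against 46 and 40 with normexp, 135 and 63 with median shift, 50 and 45 with the signal minimum, and 509 and 696 without a requirement on background. Of the 39 measured members, 14 were higher and 15 lower under every scaling and background alternative, and 10 changed sign. *Ifi202b* was the highest member in 9 of 11 settings. Not all of these could change the order, since median shift, the percentile without controls and the deposited ratios move every member alike. With normexp *Ifi202b* at 0.66 was close to *Ifitm5* at 0.62. *Ifit1* (1.57) exceeded *Ifi202b* without a requirement on background, and *Ifitm5* led with the signal minimum. Naming members by current RefSeq symbols, an alternative chosen after seeing the data, gave 45 measured members with 40% higher and the same median. No paired analysis was possible because each genotype had 1 array, and leaving out a replicate was not possible for the same reason.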

Other observations

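Current RefSeq symbols give 13 further genes a name of these families that the array does not carry. Of these, 6 were measured, 2 with a higher and 4 with a lower signal in *Sox21* KO, and 0 were past 2-fold. The lowest was *Gbp6* (*Mpa2l* on the array) at a log2 ratio of -0.72, and the highest *Ifi211* at 0.33.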
